A study of Mus musculus with 4 samples.

Results

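Collagens are the structural proteins of the extracellular matrix. Each collagen molecule is a trimer of chains, every chain is encoded by its own gene, and a gene symbol gives the collagen type and then the chain (Col4a5 encodes chain 5 of type IV). Fibrillar collagens form the ropes of connective tissue, basement membrane collagens form sheets under epithelia, vessels and muscle, and FACIT collagens sit on the surface of fibrils. Fibroblasts are the main producers of the fibrillar types, whereas hepatocytes are bordered by a sparse matrix.

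The genes were taken by name, as every symbol made of Col, a number, the letter a and a final number, which gave 44 of the 55397 genes listed. By class these were 11 fibrillar chains, 8 basement membrane chains (type IV, with types XV and XVIII of the basement membrane zone), 9 FACIT chains and 16 others. The data were bulk RNA-seq of primary mouse embryonic fibroblasts (MEFs) from E13.5 embryos of C57BL/6J mice with floxed Prox1 alleles, genotype Prox1(fl/fl), in which all 4 cultures were transduced with the 4in1 reprogramming factors that drive fibroblasts towards hepatocytes. Lentiviral cre-GFP, the active recombinase that deletes Prox1, was added in the group labelled Prox1 KO (n = 2), and dcre-GFP, a recombinase without function, in the control labelled WT Prox1 (n = 2), and RNA was taken at day 14. The cells grew on plates coated with collagen, the MEFs were prepared from limbs of several embryos pooled, and active was compared with inactive recombinase, so a response to Cre itself cannot be told apart from loss of Prox1. The labels do not say whether equal replicate numbers mark the same MEF preparation. The p-values cover no spread beyond these 4 libraries. Those from limma take the spread of a gene mostly from other genes of similar level (1 residual degree of freedom, 14.2 from other genes). The question here was which collagen chains differed when Prox1 was targeted during reprogramming.

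The libraries held 42469031 to 48524008 reads on genes. Values are normalized counts, reads per gene divided by a size factor of the library. Prox1 itself had 72.7 and 61.6 normalized counts in the libraries labelled as deleted and 60.6 and 25.5 in the controls. Its log2 fold change was 0.75 (SE 0.27, adjusted p = 0.0936 from limma). Both KO-labelled libraries were above both controls, so the count did not show the labelled deletion. A whole-gene count can include reads from outside a deleted exon, but reads per exon were not examined and the reason was not tested. Directions below therefore rest on the labels, and KO-labelled stands for the group labelled Prox1 KO. Of the lists of cell type markers, the fibroblast list had 1 of 8 tested genes higher and 1 lower by limma and edgeR and 0 by DESeq2 (2 higher and 1 lower there before adjustment), with a summed level of 249907 and 272064 normalized counts in the KO-labelled libraries and 242365 and 253862 in the controls. Hepatocyte markers had 5 of 6 tested genes lower by limma and edgeR, 2 by DESeq2 and 0 by limma without the replicate block or the intensity trend, where 3 had p under 0.05 before adjustment (summed level 15930 and 17293 against 21618 and 21145), with Cyp7a1 at 0 in every library. Over all genes tested, limma called 11.4%. In bulk samples, fewer cells of a type and less RNA per cell cannot be told apart.

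Type IV chain genes lie in head-to-head pairs that share a start region, and 1 stretch from each is shown because the chains of this type all pointed the same way below. The sequences are RefSeq promoter windows on GRCm38.p6 (mm10), 5′ to 3′ on the strand named, and capitals mark any match, on either strand, to the GC box GGGCGG, to the CCAAT box, to the TATA box written TATAAA, or to the AP-1 motif written TGANTCA. The annotated starts of Col4a1 and Col4a2 overlap by 22 bases at chr8:11312805-11312826 (plus strand, 72.7% G and C), those of Col4a4 and Col4a3 leave 71 bases between them at chr1:82586850-82586920 (minus strand, 69% G and C), and those of Col4a6 and Col4a5 leave 1308 bases, of which the part next to each gene is given, chrX:141475169-141475384 before Col4a5 (plus strand, 52.3% G and C) and chrX:141474077-141474326 before Col4a6 (minus strand, 47.6% G and C).
Col4a1 and Col4a2: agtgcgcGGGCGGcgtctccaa
Col4a4 and Col4a3: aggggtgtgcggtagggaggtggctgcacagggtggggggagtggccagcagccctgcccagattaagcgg
Col4a5: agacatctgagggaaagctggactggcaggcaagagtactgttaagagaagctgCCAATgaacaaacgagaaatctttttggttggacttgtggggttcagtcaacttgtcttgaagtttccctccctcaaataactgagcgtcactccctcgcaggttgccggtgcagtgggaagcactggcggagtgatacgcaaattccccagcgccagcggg
Col4a6: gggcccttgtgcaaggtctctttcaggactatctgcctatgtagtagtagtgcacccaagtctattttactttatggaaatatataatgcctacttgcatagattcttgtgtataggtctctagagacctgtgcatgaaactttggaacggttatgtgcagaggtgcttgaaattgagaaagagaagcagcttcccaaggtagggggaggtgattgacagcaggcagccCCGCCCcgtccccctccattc
In the 250 bases before the RefSeq start, which for Col4a5 is a window that reaches past the printed stretch, GGGCGG occurred in 21 of the 35 chains with a RefSeq window (60%), against 32.7% of all 32851 windows. CCAAT occurred in 37.1% of the chains and 33.8% of windows, TATAAA in 14.3% and 12.4%, and TGANTCA in 2.86% and 6.75%. A chain counted if any of its windows held the motif, while the comparison counted each window, so the percentages are not like for like. A match describes letters and is not a binding site. Chains without a window were Col1a1, Col2a1, Col4a3, Col5a2, Col9a3, Col12a1, Col14a1, Col22a1 and Col26a1.

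Collagen transcripts made up a substantial part of the RNA at day 14 in both groups. All 44 chains together took 3.99% and 4.56% of normalized counts in the KO-labelled libraries, replicates 1 and 2, and 4.08% and 4.71% in the controls. The difference, of -0.121 percentage points, was smaller than the spread between replicates (exact permutation test, two-sided p = 0.667, where 2 libraries against 2 cannot give less than 0.333). Within replicate 1 the difference was -0.0879 points and within replicate 2 it was -0.153, a pairing that the test does not use. Per kilobase of transcript, a scale on which genes can be compared, the highest levels averaged over the 4 libraries belonged to Col1a2 (48016 normalized counts per kilobase), Col1a1 (46790) and Col3a1 (44795), the chains of types I and III. The 2 major type IV chains followed, Col4a1 with 32486 and Col4a2 with 26186, with Col6a1 of the beaded filament collagen VI between them at 26969. At the other end were Col6a5 with 1.74 and Col17a1, a hemidesmosome component of epithelia, with 2.79. Cartilage collagens differed among themselves, with 7.49 for Col2a1, the main collagen of cartilage, and 365 for Col10a1, the product of hypertrophic chondrocytes.

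**Figure D1:**
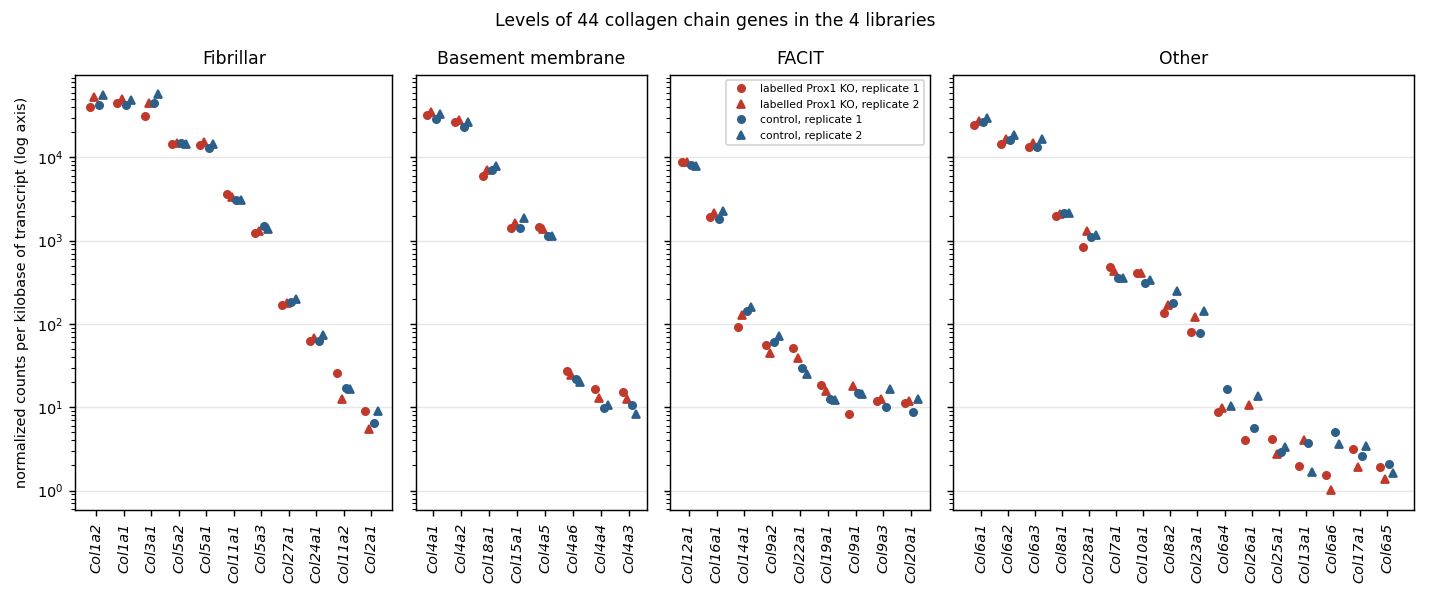
Level of each of the 44 collagen chains in each library, in normalized counts per kilobase of the longest transcript (log axis), by class and ordered by the mean. Red marks the KO-labelled libraries, blue the controls, circles replicate 1 and triangles replicate 2; single libraries ran from 1 for Col6a6 (KO-labelled replicate 2) to 57161 for Col3a1 (control replicate 2).

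Between the groups, 13 of the 43 tested chains passed the threshold (30.2%), 6 of them higher and 7 lower where KO was labelled. Over all genes tested, 11.4% were called, 5.09% higher and 6.29% lower (limma with replicate number as blocking factor, p-values adjusted by Benjamini and Hochberg over 15809 genes, threshold 0.05). With the GC content and length of transcripts taken into account, that split over all genes turned to 1140 higher and 833 lower. Among chains that averaged 1000 or more normalized counts, a limit set after the values were seen, 9 of 22 were called, 40.9% against 16.0% of all genes at that level (8.64% higher and 7.39% lower). Higher chains were Col4a5, Col7a1, Col10a1, Col11a1, Col12a1 and Col22a1. Lower chains were Col3a1, Col5a3, Col6a2, Col6a6, Col8a2, Col14a1 and Col18a1. Changes were mostly small, with a median size of 0.34 on the log2 scale among the called chains, 0.15 over the 43 tested and 0.10 over all genes. The calls depended on the model: without the replicate block 0 chains passed in limma (before adjustment, 7 higher and 4 lower had p under 0.05), and without an intensity trend in the variance 0 passed in limma (before adjustment, 7 and 5), while on recovered reads with the block edgeR called 7 higher and 8 lower and DESeq2 5 and 5. Over all genes, edgeR called 1800 of 15809. DESeq2 called 471 of the 13394 to which it gave an adjusted p, 38 chains among them. Without the block, and without the trend, 0 of all genes passed in limma. With quantile normalization the chains split into 10 higher and 7 lower (1452 of 15809 genes called). With GC content and transcript length accounted for they split into 5 higher and 9 lower (1973 of 15797 genes called).

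**Figure D2:**
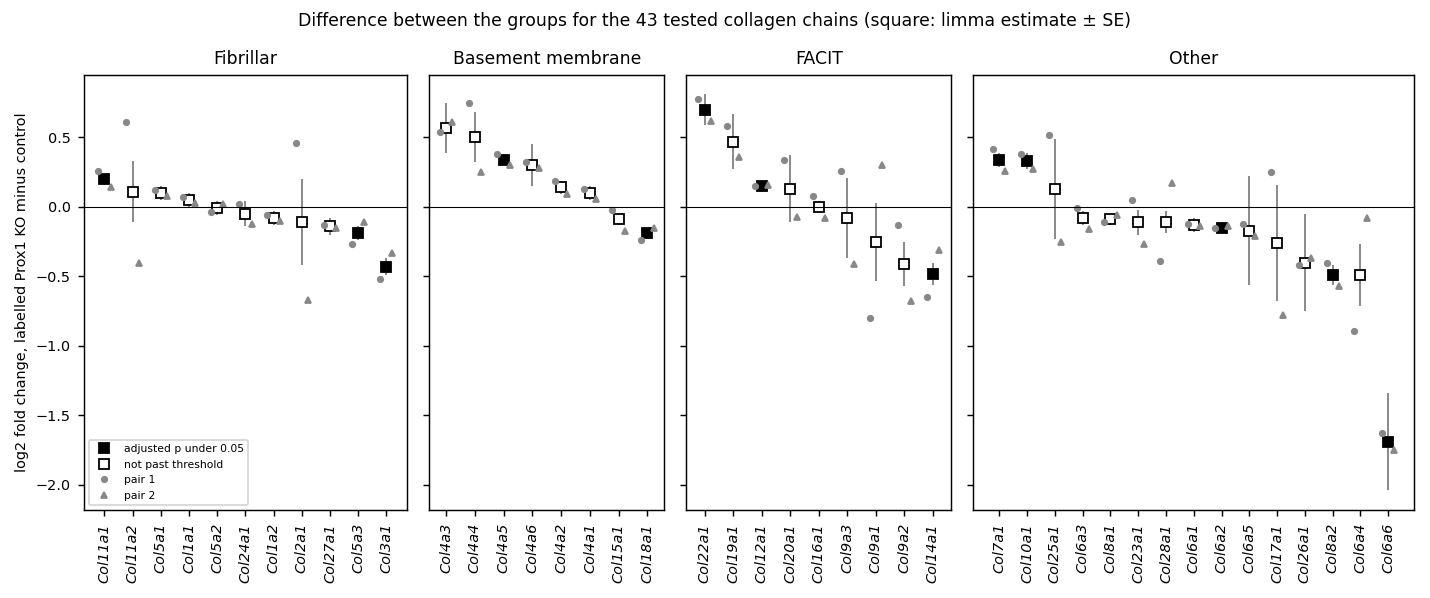
Difference of each tested collagen chain between the groups, as log2 fold change (labelled Prox1 KO minus control), by class. Squares with bars are limma estimates ± SE, filled where the adjusted p was under 0.05, and grey points are the differences within replicate 1 (circles) and replicate 2 (triangles); the 13 filled squares range from -1.69 for Col6a6 to 0.70 for Col22a1.

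Among the 11 fibrillar chains, 1 was higher and 2 lower, and the class median of the log2 fold change was -0.05, against 0.00 over all genes tested. Col3a1 (chromosome 1, 45311538 to 45349706), which forms the homotrimer of type III collagen in pliable tissues, had 174948 and 252954 normalized counts in the KO-labelled libraries, replicates 1 and 2, and 251005 and 318043 in the controls. Within each replicate number the control was higher, but the groups overlapped, because both replicate 2 libraries lay above their replicate 1 counterparts. Its log2 fold change was -0.43 (SE 0.06, adjusted p = 0.000177 from limma), a level 25.5% lower. Fitted without the block and without 1 library, the change was -0.16 without the first KO-labelled library, -0.69 without the second and -0.25 without the second control, and none of these passed. An annotated gene on the same strand, Gm47302, overlaps its exons, and 0.769% of 100-base stretches along its longest transcript are found in another gene too.

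Both chains of type I collagen, the major fibre of skin, tendon and bone, had groups that overlapped. Col1a1 had 264118 and 300038 normalized counts against 251990 and 293721 in the controls, a log2 fold change of 0.05 (SE 0.05, adjusted p = 0.634 from limma). Col1a2 had 215629 and 283412 against 225081 and 303030, a log2 fold change of -0.08 (SE 0.05, adjusted p = 0.394 from limma), which turned to 0.04 with quantile normalization. Neither difference passed the test. The ratio of Col3a1 to Col1a1 per kilobase, chosen after the values were seen, was 0.706 and 0.899 in the KO-labelled libraries and 1.06 and 1.15 in the controls, so the libraries did not overlap (exact permutation test, two-sided p = 0.333, the smallest this design allows). Col1a1 to Col1a2, which assemble in the same trimer, stood at 1.1 and 0.955 against 1.01 and 0.874 (exact permutation test, two-sided p = 0.667). That test sets the replicate numbers aside, and within each replicate number the log2 ratio was higher in the KO-labelled library by 0.13.

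Type V and XI chains set the diameter of type I and II fibrils. Col5a1 and Col5a2 were not past the threshold, at 0.10 and -0.01 on the log2 scale (limma adjusted p = 0.195 and 0.907). Col5a3, a chain of a less common type V trimer (chromosome 9, 20770050 to 20815067), had 7556 and 7923 normalized counts against 9142 and 8536 in the controls. Both KO-labelled libraries were below both controls, and the log2 fold change was -0.19 (SE 0.05, adjusted p = 0.0117 from limma), although DESeq2 with the block gave an adjusted p of 0.0873. Col11a1, of cartilage type XI (chromosome 3, 114030540 to 114220718), moved the other way, with 28128 and 25935 against 23529 and 23461. The groups did not overlap, and its log2 fold change was 0.20 (SE 0.04, adjusted p = 0.00506 from limma). The remaining fibrillar chains Col2a1, Col11a2, Col24a1 and Col27a1 had log2 fold changes between -0.14 and 0.11, and none of them passed.

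All 6 type IV chains had positive log2 fold changes, from 0.10 to 0.57 with a median of 0.32, but 1 of them, Col4a5, was called by limma. Each was positive in both replicate pairs. Of the 43 tested chains of all classes, 31 had the same direction in both pairs, and the share over all genes was not counted. Fitted without the first control and without the block, 5 of the 6 type IV chains were positive and Col4a1 was not. Type IV chains form the sheet of every basement membrane, in trimers of Col4a1 with Col4a2, of Col4a3, Col4a4 and Col4a5, and of Col4a5 with Col4a6. Col4a5 (chromosome X, 141475385 to 141689234) had 9634 and 9138 normalized counts in the KO-labelled libraries and 7397 and 7415 in the controls. The groups were clearly apart, with a log2 fold change of 0.34 (SE 0.04, adjusted p = 6.35e-05 from limma), the smallest p among the collagen chains. Its neighbour Col4a6 had 180 and 161 against 144 and 133, and did not pass at 0.30 (SE 0.15, adjusted p = 0.242 from limma).

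The other pairs of type IV genes were named here after their values were seen, except Col4a1 and Col4a2, which are among the 5 most abundant chains. Col4a3 had 131 and 109 normalized counts against 90 and 71.3, a log2 fold change of 0.57 (SE 0.18, adjusted p = 0.0538 from limma). Col4a4 had 167 and 129 against 99.1 and 109, a log2 fold change of 0.50 (SE 0.18, adjusted p = 0.0841 from limma). In both genes the KO-labelled libraries were above the controls. The abundant Col4a1 (212295 and 231370 against 193821 and 222103) and Col4a2 (170563 and 183037 against 149884 and 172123) had groups that overlapped. Their log2 fold changes were 0.10 (SE 0.05, adjusted p = 0.282 from limma) and 0.14 (SE 0.05, adjusted p = 0.0955 from limma), and edgeR called Col4a2 with an adjusted p of 0.0464. Per kilobase, the ratio of Col4a1 to Col4a2 was 1.21 and 1.23 in the KO-labelled libraries and 1.26 in each control (exact permutation test, two-sided p = 0.333), and that of Col4a5 to Col4a1, chosen after the values were seen, was 0.0459 and 0.04 against 0.0386 and 0.0338. Genes with exons that overlap on the other strand, as Col4a1 and Col4a2 do at their starts, can share reads if strand was not used in counting, which the sources used here do not say.

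In the same class the multiplexins, collagens of the basement membrane zone that release anti-angiogenic fragments, had negative values. Col18a1 (chromosome 10, 77052178 to 77166548), the source of endostatin, had 33773 and 39320 normalized counts in the KO-labelled libraries and 39903 and 43563 in the controls. The groups did not overlap, with the second KO-labelled library just below the lower control, and its log2 fold change was -0.19 (SE 0.04, adjusted p = 0.0066 from limma). Without the first KO-labelled library it was -0.08 and without the second -0.30, both short of the threshold in a fit without the block. Col15a1 had a log2 fold change of -0.09 (SE 0.04, adjusted p = 0.205 from limma). With both included, the median of the 8 basement membrane chains was 0.22.

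FACIT collagens differed in both directions, with 2 of 9 higher, 1 lower and a median of 0.00. Col22a1 (chromosome 15, 71795795 to 72034227), found at the junctions of muscle with tendon, had 453 and 343 normalized counts in the KO-labelled libraries and 263 and 222 in the controls. This was a log2 fold change of 0.70 (SE 0.11, adjusted p = 0.000619 from limma), or 62.6% higher, with both pairs in the same direction, and an antisense gene, Gm16308, overlaps its exons. Col12a1 (chromosome 9, 79598991 to 79718831), which binds type I fibrils under tension, had 102693 and 100596 against 92743 and 90336. The replicates of each group were close and the groups apart, yet the change was small, 0.15 on the log2 scale (SE 0.04, adjusted p = 0.0388 from limma), and once GC content and transcript length were accounted for it was 0.09, with an adjusted p of 0.116.

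Col14a1 (chromosome 15, 55307750 to 55520803), a fibril-bound FACIT of dense connective tissue, was the only FACIT chain called lower. It had 588 and 831 normalized counts against 924 and 1031 in the controls, a log2 fold change of -0.48 (SE 0.08, adjusted p = 0.0012 from limma), and the groups did not overlap. Within replicate 1 the difference was -0.65 and within replicate 2 it was -0.31. Fitted without the block, it was -0.23 without the first KO-labelled library and -0.73 (limma adjusted p = 0.0469) without the second. The chains of type IX (Col9a1, Col9a2 and Col9a3), of cartilage fibrils, had log2 fold changes of -0.25, -0.41 and -0.08, and Col16a1, Col19a1 and Col20a1 had 0.00, 0.47 and 0.13, and none of these passed. Summed over the class, FACIT chains took 0.256% and 0.252% of all normalized counts in the KO-labelled libraries and 0.233% and 0.23% in the controls (exact permutation test, two-sided p = 0.333). Most of these counts were from Col12a1.

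Of the other collagens, Col7a1 and Col10a1 were higher. Col7a1 (chromosome 9, 108953586 to 108984875) forms the anchoring fibrils that tie epithelial basement membrane to the tissue below. It had 4451 and 3953 normalized counts in the KO-labelled libraries and 3328 and 3311 in the controls, a log2 fold change of 0.34 (SE 0.05, adjusted p = 0.000335 from limma). Col10a1 (chromosome 10, 34389981 to 34397085) had 1268 and 1273 against 972 and 1056, a log2 fold change of 0.33 (SE 0.06, adjusted p = 0.00309 from limma), and DESeq2 gave an adjusted p of 0.14. For both genes the libraries of the groups stood apart. Col10a1 overlaps exons of Nt5dc1 on the other strand, and Nt5dc1 stood at -0.04 on the log2 scale (limma adjusted p = 0.844). Of 4 tested chondrocyte markers, Cnmd was lower (adjusted p = 0.002 from limma and 0.0878 from DESeq2) and the other 3 were not called, with summed list levels of 948 and 992 in the KO-labelled libraries and 912 and 986 in the controls; the part of such cells in the Col10a1 and Col11a1 values was not tested.

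**Figure D3:**
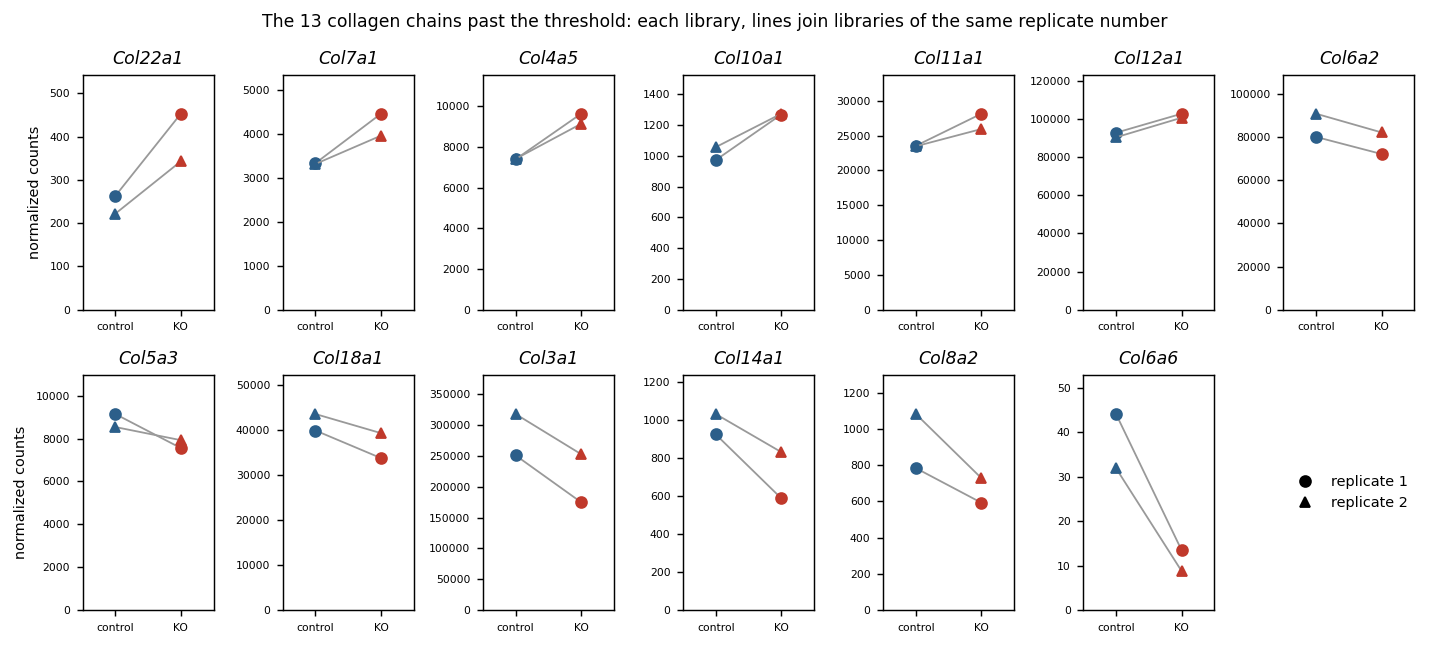
Normalized counts of the 13 collagen chains past the threshold in each library, with every vertical axis starting at 0. Blue is control, red is labelled Prox1 KO (KO on the axis), circles are replicate 1, triangles replicate 2, and grey lines join libraries of the same replicate number; the lines run in 1 direction for both replicates in every panel, and for Col3a1 and Col6a2 the groups overlap.

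All 6 type VI chains had negative log2 fold changes, with a median of -0.16, and 2 of them were called, Col6a2 and Col6a6. With quantile normalization 5 of the 6 were negative, and Col6a3 was not. In each fit without 1 library and without the block, 5 were negative, and the other was Col6a3 or Col6a5. Type VI collagen makes beaded filaments next to cells, built from Col6a1, Col6a2 and a further chain, Col6a3 in most tissues. Col6a2 (chromosome 10, 76595762 to 76623630) had 72032 and 82017 normalized counts against 79934 and 90676 in the controls, so the groups overlapped while both pairs differed in the same direction. Its log2 fold change was -0.15 (SE 0.04, adjusted p = 0.0388 from limma). In fits without the block it was -0.05 or -0.24 when the first or the second KO-labelled library was left out, and -0.24 or -0.06 when the first or the second control was, and none of these passed. Col6a1 had -0.13 (SE 0.05, adjusted p = 0.0833 from limma), and edgeR called it with an adjusted p of 0.0417. Col6a3, at -0.08 (adjusted p = 0.347 from limma), turned to 0.07 with quantile normalization. Per kilobase the ratio of Col6a1 to Col6a2 was 1.67 and 1.62 in the KO-labelled libraries and 1.63 and 1.61 in the controls (exact permutation test, two-sided p = 0.667).

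Col6a6 had the largest change among the tested chains. This chain of type VI, an alternative to Col6a3, (chromosome 9, 105687809 to 105828160) rested on 13 and 9 reads in the KO-labelled libraries and 48 and 30 in the controls. In normalized counts these were 13.5 and 8.8 against 44.1 and 31.9, a log2 fold change of -1.69 (SE 0.35, adjusted p = 0.00541 from limma). The replicate pairs gave -1.63 and -1.75. The groups were well apart but the level was low, DESeq2 gave the gene no adjusted p, and an antisense gene, Gm38314, overlaps its exons. Its relatives Col6a4 and Col6a5 had -0.49 (adjusted p = 0.197 from limma) and -0.17 (adjusted p = 0.845 from limma).

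Col8a2 (chromosome 4, 126286793 to 126314330) belongs to type VIII, a short-chain network collagen of vessels and cornea. It had 593 and 729 normalized counts in the KO-labelled libraries and 784 and 1083 in the controls, a log2 fold change of -0.49 (SE 0.07, adjusted p = 0.00054 from limma). Without the second control and without the block it was -0.25 and did not pass. Its partner chain Col8a1 had -0.09 (SE 0.04, adjusted p = 0.194 from limma), and in both genes the KO-labelled libraries were below the controls. Transmembrane chains and the remaining types (Col17a1, Col23a1, Col25a1, Col26a1 and Col28a1) had log2 fold changes between -0.40 and 0.13, and none passed. Col13a1, a transmembrane collagen, was below the limit for testing, with 6.24 and 12.7 normalized counts against 11.9 and 5.32.

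Libraries of the groups did not overlap for 19 of the 43 chains (44.2%), close to the 44.4% of all genes tested. Cultures of different replicate number differed about as much as the groups. For 33 chains replicate 2 differed from replicate 1 in the same direction in both groups, higher for 23 and lower for 10. The median size of this difference was 0.18 on the log2 scale, against 0.15 for the difference between the groups, and it exceeded the group difference for 22 of the 43 chains and for 2 of the 13 called. Col3a1 was an example, with replicate 2 above replicate 1 by 0.53 in the KO-labelled libraries and 0.34 in the controls.

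As a share of the collagen pool, basement membrane chains took 24.4% and 23% in the KO-labelled libraries and 21.9% and 21.4% in the controls, a mean difference of 2.03 percentage points (exact permutation test, two-sided p = 0.333). The FACIT share was 6.41% and 5.53% against 5.71% and 4.87% (exact permutation test, two-sided p = 0.667). Fibrillar chains took 50.9% and 53.5% against 53.4% and 54.7% (exact permutation test, two-sided p = 0.667), and the other chains 18.3% and 17.9% against 19% in each control (exact permutation test, two-sided p = 0.333). In each pair the basement membrane and FACIT shares were higher and the fibrillar and other shares lower in the KO-labelled library, and 2 libraries a group allow no p below 0.333. These shares mainly follow a few abundant chains. Mean normalized counts were 214897 for Col4a1 and 168902 for Col4a2, with Col18a1 next in the class at 39140. Among FACIT chains they were 96592 for Col12a1, with Col16a1 next at 10609.

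**Figure D4:**
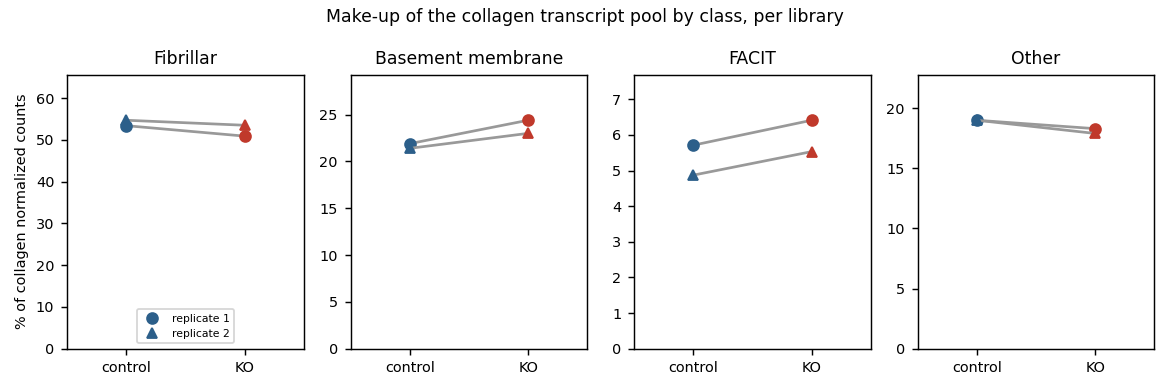
Share of all collagen normalized counts taken by each class, in percent, for each library, with axes starting at 0. Blue is control, red is labelled Prox1 KO, circles are replicate 1, triangles replicate 2, and grey lines join the same replicate number; the basement membrane share was 21.9% and 21.4% in the controls and 24.4% and 23% in the KO-labelled libraries.

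Collagen chains are hydroxylated, folded, secreted, trimmed and crosslinked by dedicated proteins, and 7 lists of such genes and of collagen partners were followed in the same fit. Of their 84 genes, 79 were tested, and 8 were higher, 15 lower and 56 not called by limma, with a median log2 fold change of -0.06. That was 29.1% called, against 11.4% of all genes and 16.0% of genes averaging 1000 or more normalized counts, as many list genes did. DESeq2 called 5 higher and 5 lower of the 77 to which it gave an adjusted p, against 471 of 13394 over all genes. The lists were chosen with earlier results of these data known, so the counts are a description.

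Folding and hydroxylation genes had 3 of 17 tested lower and 0 higher by limma. That was 17.6% called, near the 16.0% of all genes averaging 1000 or more normalized counts. Before adjustment, 2 were higher and 5 lower at p under 0.05 in limma. With edgeR 0 were higher and 3 lower, and with DESeq2 0 were higher and 1 lower. Serpinh1, the collagen chaperone HSP47, had 59394 and 59409 normalized counts in the KO-labelled libraries and 64488 and 68735 in the controls, a log2 fold change of -0.16 (SE 0.04, adjusted p = 0.0232 from limma). Ppib, a prolyl isomerase, and Colgalt1, which attaches galactose to collagen, fell by 0.15 and 0.13 on the log2 scale (adjusted p = 0.019 and 0.0486 from limma, 0.107 and 0.3 from DESeq2). Each of these 3 genes was lower in both KO-labelled libraries than in either control.

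Among 10 tested genes of secretion and propeptide cleavage, 2 were higher and 1 lower. Creb3l1, a transcription factor of the endoplasmic reticulum that acts on collagen genes, had 5446 and 5152 normalized counts against 4346 and 4128, a log2 fold change of 0.32 (SE 0.04, adjusted p = 0.000137 from limma), with the groups apart. Tll1, a procollagen C-proteinase, rose by 0.16 (adjusted p = 0.0477 from limma and 0.575 from DESeq2). Adamts2, which removes the N-propeptide of fibrillar procollagens, had 6302 and 11051 against 9189 and 12095, a log2 fold change of -0.34 (SE 0.07, adjusted p = 0.00342 from limma), but DESeq2 gave an adjusted p of 0.658, and the groups overlapped. Of the 5 crosslinking lysyl oxidases, Loxl3 and Loxl4 rose by 0.17 and 0.16 (adjusted p = 0.00989 and 0.0456 from limma), Loxl1 changed by -0.14 (adjusted p = 0.0359 from limma), and Lox and Loxl2 did not pass. DESeq2 called Loxl3 but not Loxl4 (adjusted p = 0.423) or Loxl1 (0.145).

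Of 17 tested genes for proteins that coat fibrils or regulate them, 7 were lower and 2 higher by limma and edgeR, and 3 lower and 2 higher by DESeq2. Lum (lumican), a small leucine-rich proteoglycan of collagen fibrils, had 1761 and 3064 normalized counts in the KO-labelled libraries and 4043 and 4736 in the controls, a log2 fold change of -0.91 (SE 0.09, adjusted p = 5.68e-06 from limma). Its relative Ogn (osteoglycin) had 3334 and 4190 against 5357 and 6126, at -0.62 (SE 0.05, adjusted p = 8.26e-07 from limma). For both genes the groups did not overlap. Comp, a matrix protein of cartilage and tendon, had 869 and 1222 against 1338 and 1649, at -0.53 (SE 0.06, adjusted p = 6.81e-05 from limma), and Dcn (decorin) had 5559 and 11456 against 8904 and 13017, at -0.43 (SE 0.07, adjusted p = 0.00135 from limma). Postn, Aspn and Podn were also called lower, at -0.35, -0.23 and -0.21, and Prelp and Thbs1 higher, at 0.22 and 0.18. DESeq2 called Lum, Ogn and Comp lower but not Dcn (adjusted p = 0.584), Postn (0.443), Aspn (0.0878) or Podn (0.145). The fibroblast marker Pdgfra was lower as well, at -0.48 (adjusted p = 0.00028 from limma and 0.31 from DESeq2). The rest of its list did not move that way. S100a4 was higher, at 0.18 (adjusted p = 0.0275 from limma and 0.433 from DESeq2), 6 markers were not called, and the list median was 0.02. The part of fibroblasts in these values was not tested.

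Receptors for collagen had 0 of 8 tested genes called by limma, edgeR or DESeq2, although before adjustment 1 gene was higher at p under 0.05 in each tool and 1 lower in edgeR. Among genes that cut collagen, Mmp2, a gelatinase that acts on type IV and denatured collagen, had 94572 and 138838 normalized counts against 131635 and 173281, a log2 fold change of -0.40 (SE 0.05, adjusted p = 0.000107 from limma), with groups that overlapped. Mmp8, a collagenase, was higher at low counts (19.7 and 24.4 against 10.1 and 3.19, adjusted p = 0.0327 from limma, none given by DESeq2). Its mean was 22.1 in the KO-labelled libraries and 6.65 in the controls, so it reached the limit of 10 for testing only through the group where it was high. Its call, counted among the list genes called higher, is therefore no support for a difference. Of the 15 partners of type IV in the basement membrane limma called 20%, against 16.0% of all genes averaging 1000 or more normalized counts. The laminin chain Lama5 rose by 0.24 (adjusted p = 0.00106 from limma), and Lama4 and Nid2 fell by 0.24 and 0.18 (adjusted p = 0.00543 and 0.00994 from limma, 0.475 and 0.117 from DESeq2).

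**Figure D5:**
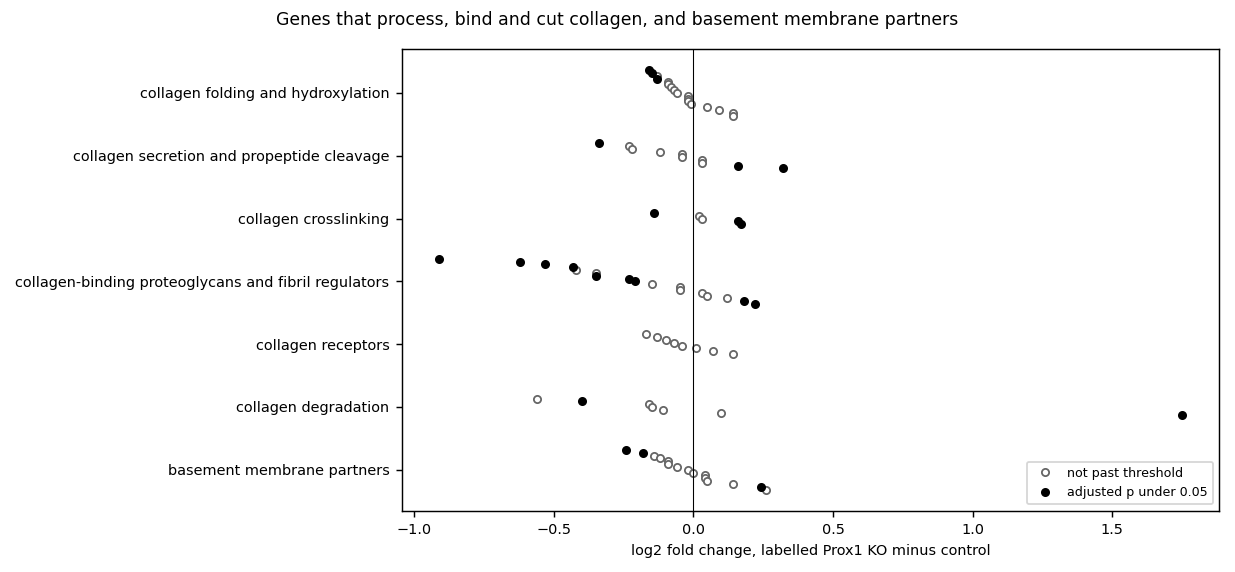
Log2 fold change (labelled Prox1 KO minus control) of the 79 tested genes of 7 collagen-related lists, 1 point a gene, filled where the adjusted p was under 0.05. In the list of collagen-binding proteoglycans and fibril regulators 7 points are filled left of 0 and 2 right of it. The far right point is Mmp8, which rests on low counts and reached the limit for testing only through the KO-labelled libraries.

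Markers of other cells differed by list. In some lists genes were called, in opposite directions, and in others 0 were called, where limma called 11.4% of all genes tested. In the smooth muscle and pericyte list 5 of 6 tested genes were higher by limma, 4 by edgeR and 3 by DESeq2, with summed levels of 101263 and 93467 normalized counts in the KO-labelled libraries and 80829 and 80278 in the controls. The cholangiocyte and epithelial list had 5 of 7 tested genes lower by all 3 tools, with 8947 and 9708 against 13395 and 18577. Of the 6 endothelial markers 3 were tested and Kdr was higher (938 and 770 against 564 and 509), while the other 5 summed to 132 and 179 against 188 and 138. Adipocyte (3 tested), macrophage (3 tested), osteoblast (3 tested) and keratinocyte (1 tested) lists had 0 genes called by limma, edgeR or DESeq2 (in limma before adjustment, 1 adipocyte and 1 macrophage gene higher and 1 osteoblast gene lower), and Des, the 1 skeletal muscle marker tested, was higher (adjusted p = 0.00167 from limma and 0.0537 from DESeq2). The part of such cells in the collagen values, including those of Col4a5, Col8a2 and Col22a1, was not tested.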

How the data were processed

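Total RNA of 4 cultures was sequenced as paired-end reads of dUTP libraries. According to the methods and the submitters' processing notes, the authors mapped reads to mm10 with STAR, and deposited normalized counts, a signal per gene made of read counts scaled by the size factor that DESeq2 estimated for the library. The counter and annotation release are not given in the sources used here. All positive values (100%, tolerance 0.01) were whole multiples of the smallest in their library, so reads could be recovered. A second deposited table of the authors' fold changes and p-values was not used.

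Genes averaging 10 or more normalized counts (15809 of 55397) were tested on log2(normalized count + 1), which understates changes of low genes, with limma 3.58.1 in R 4.3.3, an intensity trend, the replicate number as a block (the methods use the MEF line as covariate), adjusted p-values by Benjamini and Hochberg, and 0.05 as threshold. The block leaves 1 residual degree of freedom, to which the trended prior adds 14.2. Same-numbered libraries deviated together (correlation of deviations 0.402 over genes, which are not independent). Same-group libraries differed beyond sampling noise in 34.3% and 35.4% of genes. SD is between 2 libraries and SE is limma's. Alternatives included edgeR 4.0.16 and DESeq2 1.42.0 on recovered reads. Scripts were also run on simulated counts that had a common variance setting for all genes and no replicate effect. Those counts differ from these data there, so that run does not check the replicate block or the intensity trend.

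Members and gene lists were chosen with earlier results of these data known. Full values are given for called chains, the 5 most abundant chains and at most 4 called genes of each list; other chains are named to account for all members. Lengths (longest transcript) and coordinates are from GENCODE vM21 on GRCm38, and all 44 chains matched. Counting error covers no amplification.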

Additional observations from a re-analysis of the deposited data

How the results depend on the processing

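The 13 called chains kept their direction in every fit that gave them a value. With the replicate block, 13 remained called at a pseudocount of 0.1, without a filter, with quantile normalization, total-count scaling and edgeR, 12 with the GC and length correction (Col12a1 lost), 11 at a pseudocount of 10 (Col12a1 and Col6a2 lost), and 10 of the 12 to which DESeq2 gave an adjusted p (Col10a1 and Col5a3 lost). Without the replicate block, chains called higher and lower, list genes called higher and lower, and all genes called were 0, 0, 0, 0 and 0 (1783 genes at an unadjusted p under 0.05). The same counts were 0, 0, 0, 0 and 0 without the intensity trend (2307 genes at an unadjusted p under 0.05), where the prior added 1.47 degrees of freedom in place of 14.2. DESeq2 called 471 of the 13394 genes to which it gave an adjusted p, and 5 list genes higher and 5 lower. Quantile normalization gave 10 chains higher, 5 list genes higher, a basement membrane median of 0.28, and reversed Col1a2 (0.04) and Col6a3 (0.07). A pseudocount of 10 gave 5 list genes higher. The share of called genes that were higher was 44.7%, and 57.8% with the GC and length correction. The cause was not tested.

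Leaving out 1 library (fitted without the block, where the lone library is assumed to vary like the other group) or 1 pair (values only) gave 0 to 0 chains higher, 0 to 1 lower (Col14a1, without the second library labelled Prox1 KO), 0 to 0 list genes higher, 0 to 2 lower and 0 to 118 genes called. Class medians ran from -0.14 to 0.09 (fibrillar), 0.17 to 0.25 (basement membrane), -0.16 to 0.16 (FACIT) and -0.21 to -0.05 (other, with -0.20 without the second KO library and -0.12 in pair 1 alone), the collagen share difference from -0.153 to -0.0879 points, Col1a1 from -0.06 to 0.16 (-0.04 without the second KO library), Col1a2 from -0.29 to 0.14, Col4a1 from 0.00 to 0.19 and Col6a3 from -0.26 to 0.09 (without the first KO library Col1a2 was at 0.12 and Col6a3 at 0.01). Among called chains the ranges were -0.69 to -0.16 (Col3a1), -0.72 to -0.25 (Col8a2), -0.73 to -0.23 (Col14a1), -0.30 to -0.08 (Col18a1), -0.27 to -0.11 (Col5a3) and -0.24 to -0.05 (Col6a2). Counts were lowest for Col6a6 among called chains, at 9 to 48 reads a library.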
